A study of Homo sapiens with 34 samples.

Results

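The DDX5 knockout of hTERT-RPE-1 cells, a human retinal pigment epithelium line immortalised with telomerase, was compared with 3 other gene knockouts made in the same way. The members were the 2 libraries named as DDX5 knockout in the deposited splicing table, set against the 6 libraries named as DDX17, FNBP4 and HDAC7 knockouts (2 of each), out of 34 libraries of the series. The series measured total RNA depleted of ribosomal RNA, by stranded RNA sequencing, after editing with hybrid guide RNAs, each of which joins a Cas9 guide to a Cas12a guide in one transcript. Changes that all 4 knockouts share, including any common response to Cas9 cutting in an exon, cancel in this comparison.

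Cells of every group were transduced at a low viral dose with lentivirus carrying the hybrid guide, a green fluorescent protein and puromycin resistance. They were selected in puromycin at 20 µg/ml for 72 h and harvested after 4 more days of growth. Each knockout used 1 exonic Cas9 guide from the TKOv3 knockout library joined to a Cas12a guide that the labels call intergenic, and RNA came from the selected population, with no cloning step in the labels. A partial loss of a transcript can therefore not be told apart from a full loss in some of the cells. The labels call the 2 libraries of each group biological duplicates. The report also uses 4 libraries with a deletion inside an intron of DDX5 (2 hybrid guides, 2 libraries each) and 4 intergenic control libraries, in which both guides cut outside genes (2 hybrid guides, 2 libraries each).

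DDX5, also called p68, is a DEAD-box RNA helicase that uses ATP to open short RNA duplexes and to displace proteins from RNA. It works in pre-mRNA splicing, in ribosomal RNA maturation and in the Microprocessor complex that cuts primary microRNA transcripts, and it serves as a coactivator of p53, beta-catenin, SMAD proteins and steroid receptors. DDX17, or p72, is its closest relative and shares many of these roles.

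The guides are shown because they define the groups. The DDX5 knockout guide matched exon 6 of 13 of DDX5 (ENST00000225792.9, GENCODE v29, GRCh38) at chr17:64503471-64503490, on the strand of the mRNA, and the site lay in the coding sequence of 5 of 16 coding DDX5 transcripts. In the lines that follow, capitals mark the 3 bases after a Cas9 site, the NGG motif that Cas9 needs, read from the transcript; sequences are written 5′ to 3′.
DDX5 knockout, Cas9: aagtctacttgtatctacggTGG
DDX5 knockout, Cas12a, intergenic: accattacccccttcccaggact
FNBP4 knockout and HDAC7 knockout, Cas9: gaagtctgggatgagaacacGGG
DDX17 knockout, Cas9: taggtggtcgttctcgttac
DDX5 deletion hybrid guide 1, Cas9: gacgactactgtgtaggtgaGGG
DDX5 deletion hybrid guide 1, Cas12a: acctctctaatcgactggaagca
DDX5 deletion hybrid guide 2, Cas9: gacaatcggaggactcgaggGGG
DDX5 deletion hybrid guide 2, Cas12a: ccacttactatgtgtgagaagtt

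The labels give the FNBP4 and the HDAC7 knockout the same Cas9 guide, which matched exon 5 of 17 of FNBP4 (ENST00000263773.9) at chr11:47751245-47751264; they give the HDAC7 knockout the same 20 bases as its Cas12a guide too, so for that group the guide called intergenic is not. The DDX17 guide had no exact match among spliced GENCODE v29 transcripts. Outside DDX5 itself, no GENCODE v29 gene held a transcript site with an NGG motif and 1, 2 or 3 mismatches to the DDX5 knockout guide, and 3 genes, DDX17 among them, held a site with 4 mismatches. Both deletion pairs fell within 1 intron of DDX5: the Cas9 and Cas12a sites of hybrid guide 1 lay at chr17:64501367-64501386 and chr17:64501793-64501815, and those of hybrid guide 2 at chr17:64501843-64501862 and chr17:64501416-64501438 (GRCh38).

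Gene levels were taken from reads over spliced exon junctions, summed over the introns of each gene and scaled to library size (junction CPM), so a level also depends on how many introns a gene has. Levels of different genes were not compared. The 8 knockout libraries held 15080988 to 20233610 such reads, with 20233610 and 16935766 in DDX5 knockout replicates 1 and 2. Replicates 1 of all 4 knockouts stood apart from replicates 2: reads over exon-intron boundaries made up 0.965% to 1.21% of boundary and junction reads in the former and 1.92% to 2.29% in the latter (1.04% and 1.95% in the DDX5 knockout). Each DDX5 knockout library was therefore compared with knockout libraries of its own replicate number, with the number as a block in the model. Of 21 retinal pigment epithelium markers 10 passed the filter on low counts. Of 19 markers of fibroblasts, keratinocytes, endothelium and blood 4 passed, with summed levels of 188 and 211 junction CPM in the DDX5 knockout and 188 to 249.6 in the other knockouts. With 2 libraries a group, p-values measure only the spread between these libraries.

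DDX5 mRNA fell in the DDX5 knockout and DDX17 mRNA rose, while FNBP4 and HDAC7 mRNA did not pass the test. DDX5 (chr17:64499616-64508199) stood at 133 and 167 junction CPM in the DDX5 knockout and at 412, 544 and 778 in the other 6 knockout libraries. For those 6 the lowest, the median and the highest library are given, here and below, in that order. Both DDX5 knockout libraries lay far below all others, and the fitted difference on the log2 scale was -1.88 ± 0.09 (SE), limma adjusted p = 1.3e-09. Intergenic controls held 573, 521, 527 and 586 junction CPM, inside the range of the other knockouts. In the authors' deposited table the RPKM of DDX5 was 73.44 in the DDX5 knockout and 289.68, 295.18 and 227.97 in the DDX17, FNBP4 and HDAC7 knockouts.

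DDX17 (chr22:38483440-38507660) gave 637 and 629 junction CPM in the DDX5 knockout and 285, 399.6 and 461 in the others, so the groups did not overlap. The lowest levels were the 2 libraries of its own knockout, at 285 and 330.3. The log2 difference of DDX17 was 0.74 ± 0.07 (SE), limma adjusted p = 8.1e-06. It was 0.64 (limma adjusted p = 0.00054) against the FNBP4 knockout alone and 0.54 (limma adjusted p = 0.0035) against the libraries labelled HDAC7 knockout, where DDX17 was not targeted. The authors' deposited table, made from the same libraries, gave the same order. The RPKM was 200.49 in the DDX5 knockout and 101.57, 135.72 and 142.89 in the DDX17, FNBP4 and HDAC7 knockouts. DDX5 and DDX17 are paralogs, and how reads shared by both were assigned is not given in the sources used here.

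FNBP4, which encodes a formin-binding protein, gave 29.8 and 40.4 junction CPM in the DDX5 knockout and 22.3 to 50.4 in the other knockouts, with 22.3 and 44.3 in its own. HDAC7, a class IIa histone deacetylase, gave 154 and 222 against 147 to 203, with 179 and 179.8 in the libraries labelled HDAC7 knockout. FNBP4 was lowest in replicate 1 of its own knockout, next to 22.5 in replicate 1 labelled HDAC7 knockout, and DDX5 and FNBP4 knockouts differed by 0.10 on the log2 scale (limma adjusted p = 0.77). Neither mRNA checks those labels; small insertions and deletions need not lower an mRNA.

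**Figure D1:**
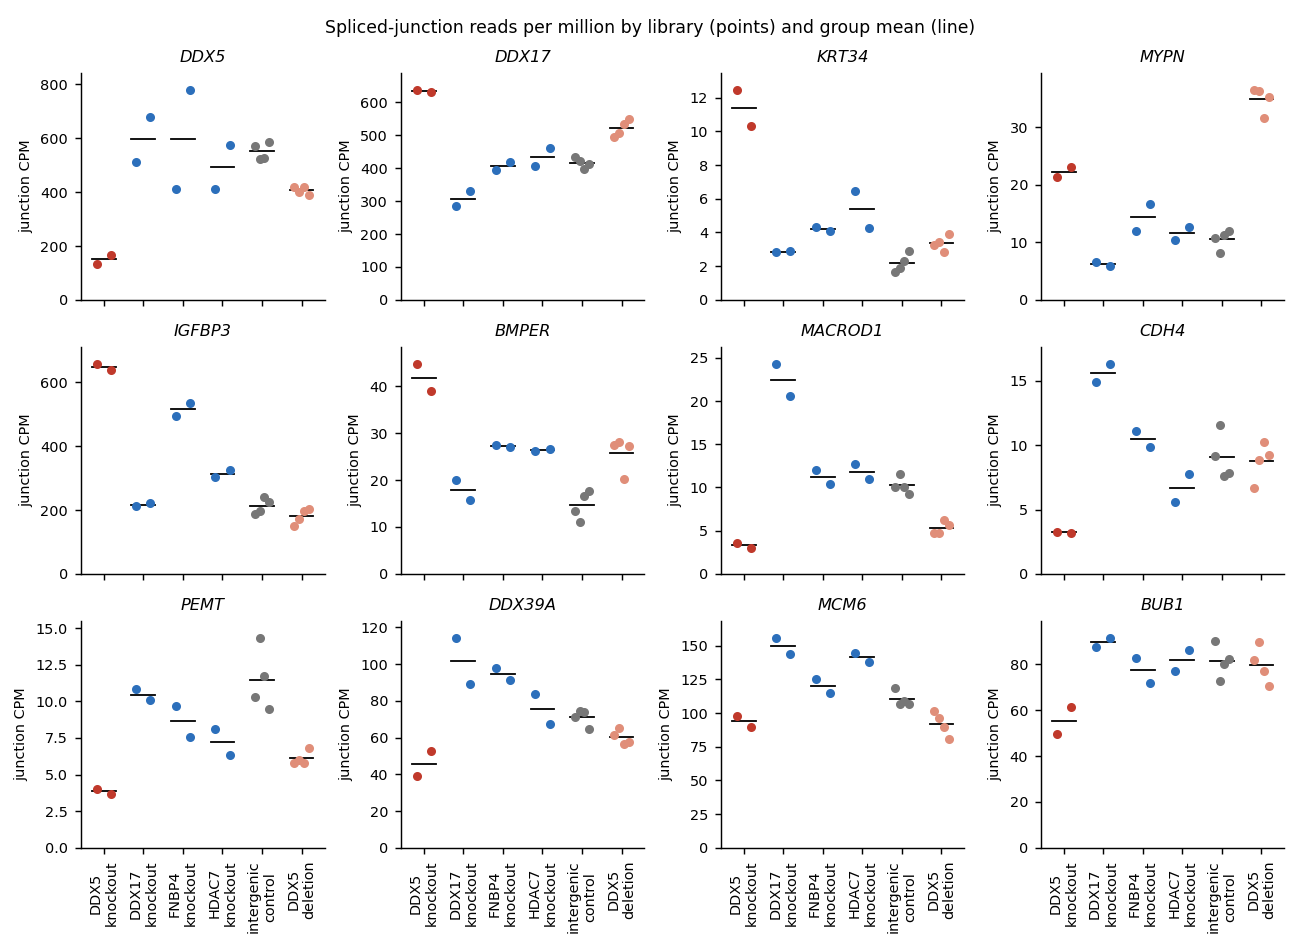
Junction CPM (vertical axis, linear from 0) of 12 genes in each library, with a point per library and a line at the group mean, for the 4 knockouts (2 libraries each), the intergenic controls (4) and the DDX5 deletion (4). DDX5, MACROD1, CDH4, PEMT, DDX39A, MCM6 and BUB1 were below all other knockout libraries in both DDX5 knockout libraries, and DDX17, KRT34, MYPN, IGFBP3 and BMPER above them.

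Across the transcriptome, 678 of 11452 genes tested were called at a Benjamini-Hochberg adjusted p under 0.05 in limma (5.92%): 377 were higher (3.29%) and 301 lower (2.63%) in the DDX5 knockout. The median log2 difference of all genes was 0.0024. Both DDX5 knockout libraries lay above all 6 others for 518 genes (4.52%) and below them for 509 (4.44%), and 194 of the genes called higher and 173 of those called lower were among these. With libraries scaled to total junction reads only, 214 genes were higher and 463 lower, which lowered the share of higher calls from 55.6% to 31.6%. The counts rest on the replicate block and on the reference: without the block 0 genes were higher and 1, MACROD1, was lower in limma (900 genes had an unadjusted p under 0.05), and DDX5 itself had an adjusted p of 0.076. Leaving out single libraries gave 27 higher and 14 lower without DDX5 knockout replicate 1, 51 and 45 without DDX5 knockout replicate 2, 150 and 99 or 172 and 140 without DDX17 knockout replicate 1 or 2, and 829 and 651 or 613 and 552 without replicate 1 or 2 labelled HDAC7 knockout. Each knockout has 1 library of each replicate number, so dropping the block leaves the log2 differences nearly unchanged by design. Their signs stayed the same for all 678 genes, which is therefore no support for the calls.

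In the same fit the DDX5 knockout had 700 genes higher (6.11%) and 543 lower (4.74%) than the DDX17 knockout alone. The counts were 191 (1.67%) and 133 (1.16%) against the FNBP4 knockout, and 123 (1.07%) and 139 (1.21%) against the libraries labelled HDAC7 knockout. These contrasts share the DDX5 knockout libraries. The DDX17 knockout was thus the reference with the most calls, and without it in the reference 88 genes were higher and 62 lower. Against the intergenic controls 711 of 12081 genes were higher (5.89%) and 496 lower (4.11%) in the DDX5 knockout.

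Among the named genes the largest rises were in KRT34 and MYPN. KRT34, a hair keratin, stood at 12.4 and 10.3 junction CPM in the DDX5 knockout and at 2.82, 4.17 and 6.49 in the other knockouts. The log2 difference was 1.49 ± 0.15 (SE), limma adjusted p = 3.4e-05. IGFBP3, the main circulating binding protein of insulin-like growth factors, stood at 658 and 639 against a median of 314 and a highest value of 535 in the other knockouts. This was a log2 difference of 0.98 ± 0.07 (SE), limma adjusted p = 1.1e-07. Neither gene's groups overlapped, and for IGFBP3 the FNBP4 knockout came nearest, at 496 and 535. BMPER, a secreted binder of bone morphogenetic proteins, gave 44.8 and 38.9 against 15.8, 26.4 and 27.4. Limma gave a log2 difference of 0.83 ± 0.10 (SE), limma adjusted p = 8.7e-05. MYPN, which encodes the sarcomere protein myopalladin, gave 21.3 and 23.1 against 5.84, 11.2 and 16.7. On the log2 scale the difference was 1.13 ± 0.12 (SE), limma adjusted p = 4.1e-05. For both genes the DDX17 knockout libraries were the lowest of the 8 knockout libraries, and the DDX5 knockout libraries lay above every other knockout library.

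SAT1, the rate-limiting enzyme of polyamine breakdown, gave 45.1 and 39.4 junction CPM against 18.2, 24.6 and 27.3. The fitted log2 difference was 0.83 ± 0.10 (SE), limma adjusted p = 0.00015. The intergenic controls held 47.5, 48.7, 56.6 and 60.1, above the DDX5 knockout, so the DDX5 knockout was the knockout nearest to the controls. Its log2 difference from them was -0.33, limma adjusted p = 0.045. DPP4, a cell-surface dipeptidase, also rose, from a median of 11.2 to 16.6 and 20.9 (log2 difference 0.78, adjusted p = 0.00067 in limma), and the controls, at 14.3 to 24, again overlapped the DDX5 knockout. TXNRD3, a thioredoxin-glutathione reductase, stood at 41.9 and 40.8 against 9.96, 32.9 and 38.6 (log2 difference 0.80, adjusted p = 0.00015 in limma). The DDX17 knockout libraries alone were low, at 11.7 and 9.96, and without them the log2 difference was 0.24 and not called. The other rises of this kind were in SGSH, a lysosomal enzyme of heparan sulfate breakdown (0.96, adjusted p = 0.0025), and RDH5, a retinol dehydrogenase of the visual cycle (0.85, adjusted p = 0.00047). DENND6B, of the DENN domain family (0.79, adjusted p = 0.0035), and GCKR, the glucokinase regulator (0.78, adjusted p = 0.0096), rose too; brackets give the log2 difference and the limma adjusted p. In each of these 4 genes both DDX5 knockout libraries exceeded all 6 others. The controls overlapped the DDX5 knockout for DENND6B (9.44 to 12.85 against 11.19 and 11.67) and SGSH (5.57 to 9.57 against 9.05 and 10.29). The log2 differences of DENND6B and SGSH from the controls were 0.03 (limma adjusted p = 0.94) and 0.36 (limma adjusted p = 0.30). RDH5 and GCKR were higher than the controls, by 0.491 (limma adjusted p = 0.021) and 1.098 (limma adjusted p = 0.0048). DENND6B and GCKR were not called without the DDX17 knockout, without either DDX5 knockout library or in the fit to all 34 libraries. SGSH was not called without either DDX5 knockout library, RDH5 without replicate 2, and SAT1 and DPP4 without replicate 1.

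Among the named genes the largest fall, larger than that of DDX5 itself, was in MACROD1, a mitochondrial enzyme that removes ADP-ribose from proteins. It stood at 3.56 and 3.01 junction CPM in the DDX5 knockout and at 10.4, 12.3 and 24.3 in the other knockouts. It differed on the log2 scale by -2.13 ± 0.19 (SE), limma adjusted p = 4.1e-06. CDH4, which encodes the adhesion protein R-cadherin, stood at 3.29 and 3.2 against 5.61, 10.4 and 16.3. The log2 difference was -1.65 ± 0.21 (SE), limma adjusted p = 0.00015. In both genes the DDX17 knockout had the highest levels, 24.3 and 20.6 for MACROD1 and 14.9 and 16.3 for CDH4. The controls lay between it and the DDX5 knockout, at 9.28 to 11.6 and 7.62 to 11.6. PEMT, which methylates phosphatidylethanolamine to phosphatidylcholine, gave 4 and 3.7 against 6.34, 8.9 and 10.8. This was a log2 difference of -1.17 ± 0.18 (SE), limma adjusted p = 0.001. DDX39A, a DEAD-box helicase of mRNA export, gave 39.3 and 52.5 against 67.6, 90.1 and 114. Limma gave a log2 difference of -0.9985 ± 0.12 (SE), limma adjusted p = 0.0001. All 4 genes were below every other knockout library in both replicates, and PEMT was not called without DDX5 knockout replicate 1.

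Metabolic genes among the other large falls were SFXN2, a mitochondrial carrier of the sideroflexin family (-1.10, adjusted p = 0.0043), GSTZ1, an enzyme of tyrosine breakdown (-1.10, adjusted p = 0.0029), and KHK, which phosphorylates fructose (-0.91, adjusted p = 0.016). DNM1, the neuronal dynamin of vesicle scission (-0.93, adjusted p = 0.0003), and LRRCC1, a centriole protein (-0.89, adjusted p = 0.01), fell too. So did CRISPLD2, a secreted protein (-0.96, adjusted p = 0.00087), and BGN, the proteoglycan biglycan (-0.82, adjusted p = 0.0047). Several of these, such as SFXN2 at 3.35 and 2.82 junction CPM, were low in every library. BGN stood at 18.4 and 11.8 against 19.1, 25.2 and 34.5, so DDX5 knockout replicate 1 only just left the range of the others. It was not called without the DDX17 knockout (log2 difference -0.64) or without DDX5 knockout replicate 2. SFXN2, GSTZ1, KHK and LRRCC1 were not called when either DDX5 knockout library was left out, and CRISPLD2 not without replicate 1. KHK and LRRCC1 were also not called in the fit to all 34 libraries, and KHK not without DDX17 knockout replicate 1. Of the 68 called genes chosen by a fixed rule for naming, 25 were also called in a fit to all 34 libraries without the block. The number was 16 and 25 without DDX5 knockout replicate 1 and 2, and 40 without the DDX17 knockout in the reference. In the authors' deposited table, 62 of the 67 that could be matched had an RPKM beyond those of all 3 other knockouts on the same side. That table combines the same libraries, and many of these genes were named for lying beyond the other knockouts. The count is therefore not separate support.

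Cell cycle genes were lower as a group. Of 31 tested genes of DNA replication and the G1/S transition 21 fell and 0 rose (2.63% of all genes fell). All 31 log2 differences were negative, with a median of -0.43 against 0.0024 for all genes. Of 25 genes of mitosis and G2/M 21 fell and 0 rose, with a median of -0.38 and 25 negative differences. The DDX5 knockout libraries held summed levels of 1553 and 1557 junction CPM of the replication list, below the 1809 to 2187 of the other knockouts. For the mitosis list they held 1552 and 1839, below 1906 to 2502. Controls lay at 1670 to 1800 and 1943 to 2180, so for replication the controls fell between the DDX5 knockout and the others.

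Among replication genes, MCM6, a subunit of the replicative helicase, gave 97.8 and 89.7 junction CPM against 115, 141 and 156. On the log2 scale the difference was -0.55 ± 0.07 (SE), limma adjusted p = 0.0003. MCM3, another subunit, gave 95.6 and 112 against 131, 144 and 171. The fitted log2 difference was -0.52 ± 0.07 (SE), limma adjusted p = 0.00046. Both genes were below every other knockout library. The origin factors CDC6, CDC45, CDT1, ORC1 and MCM10 (-0.67, adjusted p = 0.0046 in limma) fell as well. Falls were also called in the clamp PCNA and its loader subunits RFC3 and RFC4, the primase subunit PRIM1 and the ribonucleotide reductase subunit RRM2 (-0.44, adjusted p = 0.0025). E2F1, the transcription factor that drives this programme, and cyclin E2 (CCNE2) also fell. The 10 members that did not pass the test had negative log2 differences too, from FEN1 at -0.68 to GINS1 at -0.14.

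Among mitotic genes, the checkpoint kinase BUB1 gave 49.6 and 61.2 junction CPM against 72, 84.6 and 91.5. It differed on the log2 scale by -0.59 ± 0.09 (SE), limma adjusted p = 0.0012. AURKB, the kinase of the chromosomal passenger complex, gave 38.1 and 41.4 against 47.4, 55.2 and 61.7. The log2 difference was -0.46 ± 0.09 (SE), limma adjusted p = 0.005. Neither gene's groups overlapped. BUB1B (-0.55, adjusted p = 0.0051 in limma), the kinases PLK1, CDK1, TTK and AURKA, the kinesins KIF11, KIF20A and KIF23, the cyclins CCNA2, CCNB1 and CCNB2 and the transcription factor FOXM1 fell as well. TOP2A, the topoisomerase that untangles sister chromatids, gave 288 and 344 against 308, 408 and 539 (log2 difference -0.39, adjusted p = 0.0052 in limma), where replicate 2 lay inside the range of the others. CENPA, BIRC5, CDC25C and CENPF were the 4 that did not pass, at log2 differences of -0.43, -0.36, -0.28 and -0.24.

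The number of cell cycle calls depended on the reference and on single libraries. Against the DDX17 knockout alone 22 replication and 23 mitosis genes were lower, against the FNBP4 knockout alone 7 and 2, and against the libraries labelled HDAC7 knockout alone 10 and 13. Against the intergenic controls 8 and 4 were lower (4.11% of genes were). The mean of the other knockouts was above the control mean for 25 of 31 and 18 of 25 genes, and that of the DDX5 knockout below it for 30 of 31 and 23 of 25. Together the 2 lists held 42 calls, which became 1 and 9 without DDX5 knockout replicates 1 and 2. They became 17 and 22 without DDX17 knockout replicates 1 and 2, 7 without the DDX17 knockout and 0 without the replicate block.

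**Figure D2:**
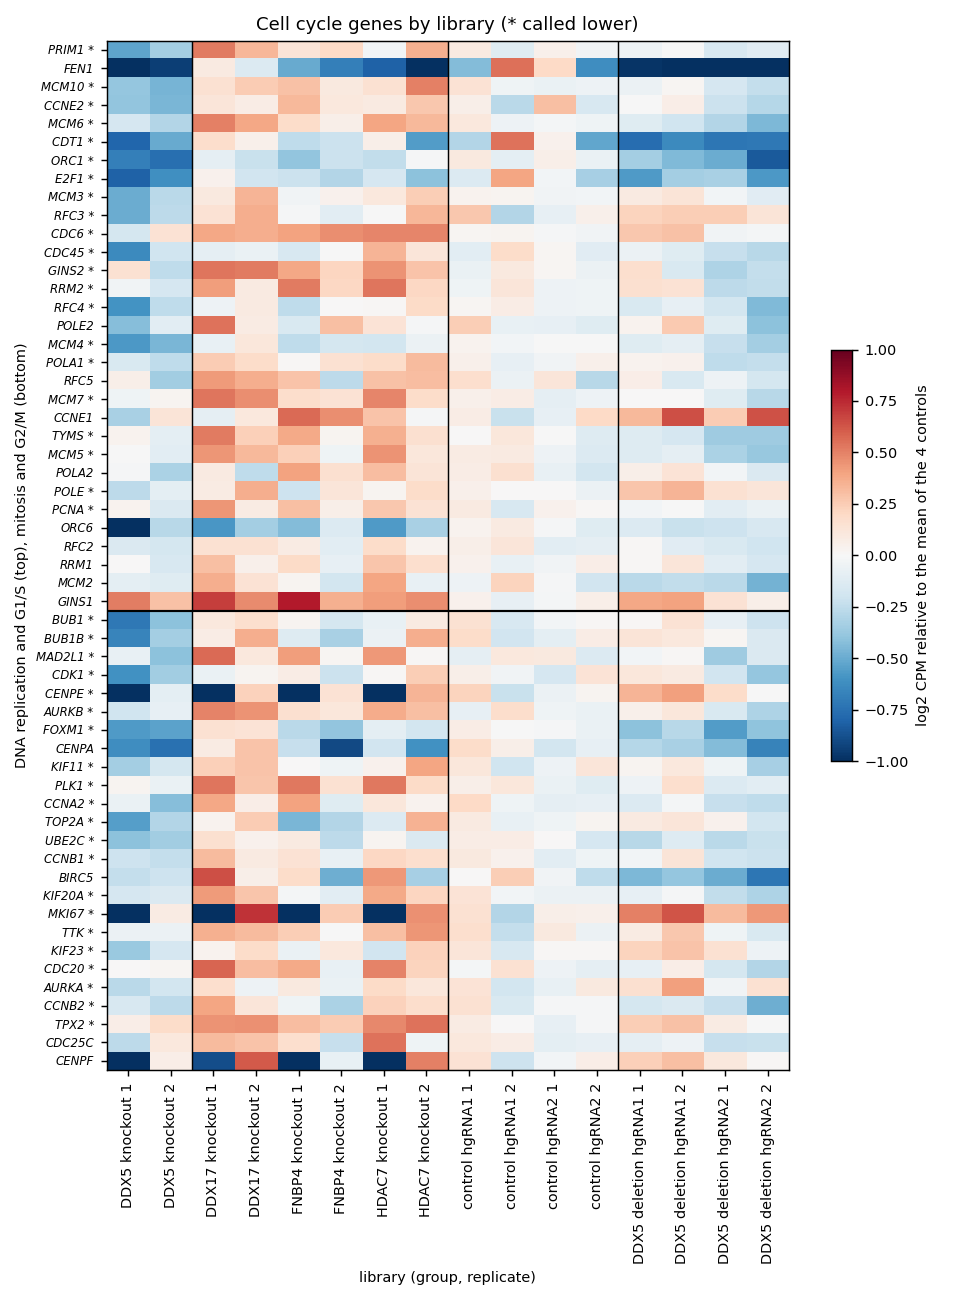
Each row is a gene of the replication list (top) or the mitosis list (bottom) and each column a library of the knockouts, the controls or the DDX5 deletion. Colour is the log2 junction CPM relative to the mean of the 4 controls, cut at -1 and 1, and asterisks mark genes called lower. Among the knockouts, the DDX5 knockout columns are the lowest within each replicate number for most rows, and MKI67, CENPE and CENPF differ mainly between replicate 1 and replicate 2 in all 4 knockouts.

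Of 26 tested genes of sterol and fatty acid synthesis 9 rose and 0 fell (3.29% of all genes rose), 24 had a positive log2 difference, and the median was 0.19. MSMO1, an oxidase of cholesterol synthesis, stood at 58.6 and 43.2 junction CPM against 27.8, 38 and 44.8 (log2 difference 0.49, adjusted p = 0.011 in limma). INSIG1, the sterol-sensing brake of the pathway, stood at 48.4 and 57.2 against 27.3, 40.8 and 48.6 (0.46, adjusted p = 0.013). For MSMO1 and INSIG1 1 DDX5 knockout library lay inside the range of the others. FDFT1, squalene synthase (0.35, adjusted p = 0.0073), STARD4, a sterol carrier (0.42, adjusted p = 0.017), HMGCS1, MVD, SCD and the transcription factors SREBF1 and SREBF2 were the other calls. STARD4 at 35.4 and 36 exceeded all other knockout libraries, whose highest was 32.8. The summed level of the list was 3749 and 3471 in the DDX5 knockout, 2781 to 3622 in the other knockouts and 3732 to 4064 in the controls. The mean of the other knockouts was above the control mean for 2 of 26 genes. Against the controls 1 member of the list was higher (5.89% of genes were) and 6 were lower (4.11%), INSIG1 among them at a log2 difference of -0.79, limma adjusted p = 0.0013. The count of 9 became 2 and 1 without DDX5 knockout replicates 1 and 2, 4 and 5 without DDX17 knockout replicates 1 and 2, 3 without the DDX17 knockout and 0 without the replicate block.

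Of 23 hypoxia and glycolysis genes 4 rose and 0 fell (3.29% of all genes rose), with a median of 0.16. PDK1, which keeps pyruvate out of oxidation, stood at 37.5 and 30.6 junction CPM against 20.4, 23.6 and 28.3 (log2 difference 0.49, adjusted p = 0.013 in limma). BNIP3L, a mitophagy receptor (0.42, adjusted p = 0.003), P4HA2, a collagen prolyl hydroxylase (0.33, adjusted p = 0.0096), and NDRG1 (0.34, adjusted p = 0.038) were the others. PDK1, BNIP3L and P4HA2 lay above all other knockout libraries, while for NDRG1 the DDX17 knockout, at 42.7 and 43.3, matched the DDX5 knockout at 43 and 35.5. Of 16 targets of the oxidative stress factor NRF2 3 rose and 0 fell. TXNRD1, thioredoxin reductase, stood at 2442 and 2098 against 1304, 1845 and 2026 (log2 difference 0.40, adjusted p = 0.0011 in limma). HMOX1, heme oxygenase (0.51, adjusted p = 0.012), and SLC7A11, the cystine importer (0.32, adjusted p = 0.042), rose with it. TXNRD1 and PDK1 were not called without DDX5 knockout replicate 1. BNIP3L, P4HA2, NDRG1, HMOX1 and SLC7A11 were not called when either DDX5 knockout library was left out. TXNRD1, P4HA2 and SLC7A11 were also not called without the DDX17 knockout, and NDRG1 and SLC7A11 not without the FNBP4 knockout. The defining targets NQO1 and GCLM did not pass, at log2 differences of 0.05 and 0.06.

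Of 29 p53 targets 3 rose, namely DRAM1 (0.43, adjusted p = 0.013 in limma), FAS (0.30, adjusted p = 0.046) and ZMAT3 (0.29, adjusted p = 0.023), and 0 fell (3.29% of all genes rose). The median log2 difference was 0.19, with 24 of 29 positive. CDKN1A and MDM2, the best known targets of p53, did not pass, at 0.21 and 0.13. All 3 called members overlapped the other knockouts. DRAM1, for example, stood at 57.6 and 43.2 junction CPM against 26.5, 34.8 and 52.3. None of the 3 was called without the DDX17 knockout in the reference. Against the DDX17 knockout alone 11 of the 29 targets were higher (6.11% of all genes were). Against the FNBP4 knockout alone 0 were (1.67%), and against the libraries labelled HDAC7 knockout 1 was (1.07%). For FAS these log2 differences were 0.67, 0.07 and 0.16. FAS and ACTA2 overlap on opposite strands, as do KRT8 and KRT18, and whether the counting used strand is not given in the sources used here. Of 20 integrated stress and amino acid genes 3 fell and 1, SLC7A11, rose (2.63% and 3.29% of all genes). The falls were in the serine synthesis enzymes PHGDH (-0.35, adjusted p = 0.014) and PSAT1 (-0.33, adjusted p = 0.025) and in asparagine synthetase, ASNS (-0.46, adjusted p = 0.018). For these 3 enzymes the DDX17 knockout had the highest levels, and against the controls the log2 differences were 0.16, 0.21 and 0.07 and not called.

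Of 24 matrix and contractile genes 2 rose and 3 fell (3.29% and 2.63% of all genes, also the background for the TGF-beta and Wnt lists). LOX, which cross-links collagen, rose to 649 and 516 junction CPM against 327, 414 and 496. This was a log2 difference of 0.51 ± 0.07 (SE), limma adjusted p = 0.00045. LOX was not called without DDX5 knockout replicate 1. POSTN, periostin, was called higher (0.88, adjusted p = 0.0096 in limma), yet at 11.1 and 12.1 the DDX5 knockout lay inside the range of 1.01 to 14.8. The libraries labelled HDAC7 knockout were low (1.01 and 3.33), and without them in the reference POSTN was not called. BGN, ACTA2 (-0.33, adjusted p = 0.0096) and COL1A1 were the 3 that fell. ACTA2, smooth muscle actin, was higher than in the controls in the DDX5 knockout, by a log2 difference of 0.44, limma adjusted p = 0.017. Of 22 TGF-beta and SMAD targets 1 fell, FST, which encodes follistatin (-0.37, adjusted p = 0.037). Of 10 Wnt targets CCND1, cyclin D1, rose (1664 and 1877 against 1005, 1375 and 1657, log2 difference 0.42, adjusted p = 0.0076 in limma). CCND1 was not called without the DDX17 knockout or without either DDX5 knockout library. Its log2 difference was 0.80 against the DDX17 knockout alone, 0.235 against the FNBP4 knockout and 0.21 against the libraries labelled HDAC7 knockout. DKK1, a Wnt antagonist, rose as well (0.34, adjusted p = 0.047), but without the DDX17 knockout its log2 difference was -0.02.

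Gene groups tied to the known roles of DDX5 in RNA held 0 to 3 calls each. Of 15 Microprocessor and microRNA biogenesis genes and of 28 genes of ribosomal RNA processing 0 were called (5.92% of all genes were), with medians of -0.03 and -0.09. Of 6 tested microRNA host transcripts 2 rose, 1 of them MIR22HG, at 7.62 and 8.35 junction CPM against 3.3, 5.15 and 6.2 (0.71, adjusted p = 0.02 in limma). The other, MIR31HG (0.55, adjusted p = 0.0082), overlapped the other knockouts, with the DDX17 knockout at 36.3 and 27.2. Of 29 DDX5 binding partners and coactivators EWSR1 (-0.27, adjusted p = 0.025) and HNRNPA2B1 (-0.26, adjusted p = 0.033) fell and 0 rose. Both overlapped the other knockouts, with HNRNPA2B1 at 612 and 851 junction CPM against 740, 845 and 1002. Of 23 nuclear speckle components the splicing factors SF3B1 (-0.29, adjusted p = 0.016) and U2AF2 (-0.30, adjusted p = 0.025) fell, and SF3B1 overlapped the other knockouts. Of 33 DEAD and DEAH box helicases other than DDX5 only DDX17 rose and only DDX39A fell. Of 18 SR proteins and regulators SRSF9 rose. Among 18 nonsense-mediated decay factors and substrates GADD45B rose (0.34, adjusted p = 0.02) and SNHG1 fell (-0.55, adjusted p = 0.033). SNHG1 overlapped the other knockouts. Its log2 difference was -1.25 against the FNBP4 knockout alone and -0.11 against the DDX17 knockout alone. Of 16 snoRNA host transcripts C6orf48 (0.45, adjusted p = 0.0009) and ZFAS1 (0.36, adjusted p = 0.011) rose and SNHG1 fell. In the fit to all 34 libraries DDX17, DDX39A and C6orf48 were called. MIR22HG, MIR31HG, EWSR1, HNRNPA2B1, SF3B1, U2AF2, GADD45B, SNHG1 and ZFAS1 were not called in that fit.

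Of 10 retinal pigment epithelium markers RDH5, KRT8 (0.26, adjusted p = 0.026 in limma) and KRT18 (0.24, adjusted p = 0.042) rose (3.29% of all genes rose). RDH5 stood at 21.6 and 25 junction CPM against 9.77, 11.6 and 19.8, whereas KRT8 and KRT18 overlapped the other knockouts. Of 32 ribosomal protein genes RPS19 rose, and of 27 nuclear-encoded respiratory chain genes COX5B rose, close to the share over all genes. Of 24 interferon response genes HERC5 fell. The summed level of this list was 2323 and 2351 in the DDX5 knockout, 2248 to 2440 in the other knockouts and 3000 to 3841 in the controls. This difference from the controls was shared by the 4 knockouts and cancels here. There were 0 calls among 17 NF-kB targets, 20 unfolded protein response genes, 16 immediate-early and ERK targets, 4 neuronal genes repressed by REST and 4 markers of other cells.

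**Figure D3:**
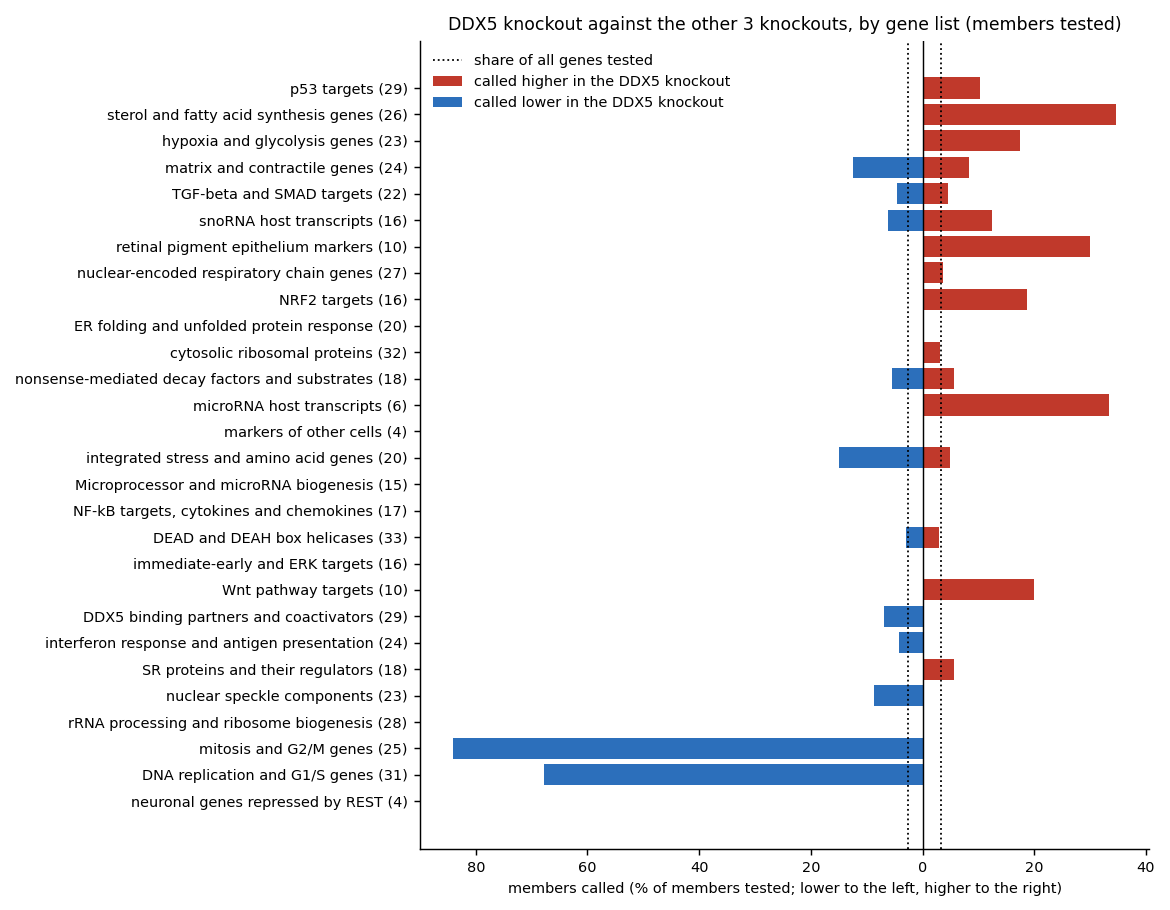
Bars give, for 28 gene lists, the percent of tested members (number in brackets) called lower (left, blue) or higher (right, red) in the DDX5 knockout; dotted lines mark 2.63% lower and 3.29% higher over all genes tested. The mitosis list reaches 84% and the replication list 67.7% on the lower side, and the sterol list 34.6% on the higher side.

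The DDX5 intron deletion and its intergenic controls share no library with the knockout comparison, and were set beside it as a second comparison. DDX5 stood at 419.6, 399.5, 417 and 389 junction CPM in the 4 deletion libraries and at 573, 521, 527 and 586 in the controls, without overlap, a log2 difference of -0.44, limma adjusted p = 0.044. DDX17 was higher in the deletion, at 494 to 548 against 396 to 433 (log2 difference 0.33, limma adjusted p = 0.0044). In the authors' deposited table neither gene had an FDR under 0.05 in the deletion. For hybrid guides 1 and 2 their log2 fold changes of DDX5 were -0.41 and -0.38 (authors' FDR 0.24 and 0.34). Those of DDX17 were 0.26 and 0.31 (authors' FDR 0.16 and 0.075). Over all genes, 872 of 12081 were higher (7.22%) and 1170 lower (9.68%) in the deletion. Of the 377 genes higher in the knockout comparison 129 were higher in the deletion (34.2% of the 377, and 15.2% of the 849 deletion genes tested in both), and 24 were lower. Of the 301 lower genes 62 were lower in the deletion (20.6% of the 301, and 5.56% of 1116), and 5 were higher. These shared counts fell to 14 and 7 without DDX5 knockout replicate 1, to 23 and 13 without the DDX17 knockout, and to 0 and 1 without the replicate block.

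Among the 68 named genes called in the knockout comparison 17 were called in the same direction in the deletion and 7 in the opposite one. MYPN stood at 31.5 to 36.4 junction CPM in the deletion against 8.13 to 12 in the controls, a log2 difference of 1.73, limma adjusted p = 5.2e-09. BMPER (0.82, limma adjusted p = 0.00048) and GCKR (1.14, limma adjusted p = 0.00042) were likewise higher, as was TXNRD1 (0.98, limma adjusted p = 4.4e-08). MACROD1 was lower, at 4.69 to 6.28 against 9.28 to 11.6 (log2 difference -0.95, limma adjusted p = 5.9e-06), and so was PEMT, at 5.8 to 6.82 against 9.5 to 14.3 (-0.89, limma adjusted p = 0.0013). For MACROD1 and PEMT the deletion libraries thus lay between the DDX5 knockout and the controls, while for MYPN they lay above both.

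Other genes differed between the 2 comparisons. IGFBP3, higher in the knockout, was lower in the deletion at 152 to 205 against 189.1 to 242 (log2 difference -0.24, limma adjusted p = 0.041). SAT1, P4HA2, NDRG1, HMOX1, INSIG1 and POSTN also carried opposite calls, the largest in POSTN (-2.48, limma adjusted p = 1.5e-07) and NDRG1 (-1.16, limma adjusted p = 1e-06). CDH4 (-0.05, limma adjusted p = 0.86) and KRT34 (0.63, limma adjusted p = 0.051) were not called in the deletion. The cell cycle lists had few calls there, 1 higher and 4 lower of 31 replication genes and 0 and 1 of 25 mitosis genes, with medians of -0.10 and -0.07. Of 23 hypoxia and glycolysis genes 1 was higher and 13 were lower in the deletion, with a median of -0.44. Sterol and fatty acid synthesis gave 2 higher and 5 lower of 26 (median 0.09), and p53 targets 5 and 2 of 29 (0.09). Over all genes 7.22% were higher and 9.68% lower. Whether the knockout and deletion effects differ was not tested.

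**Figure D4:**
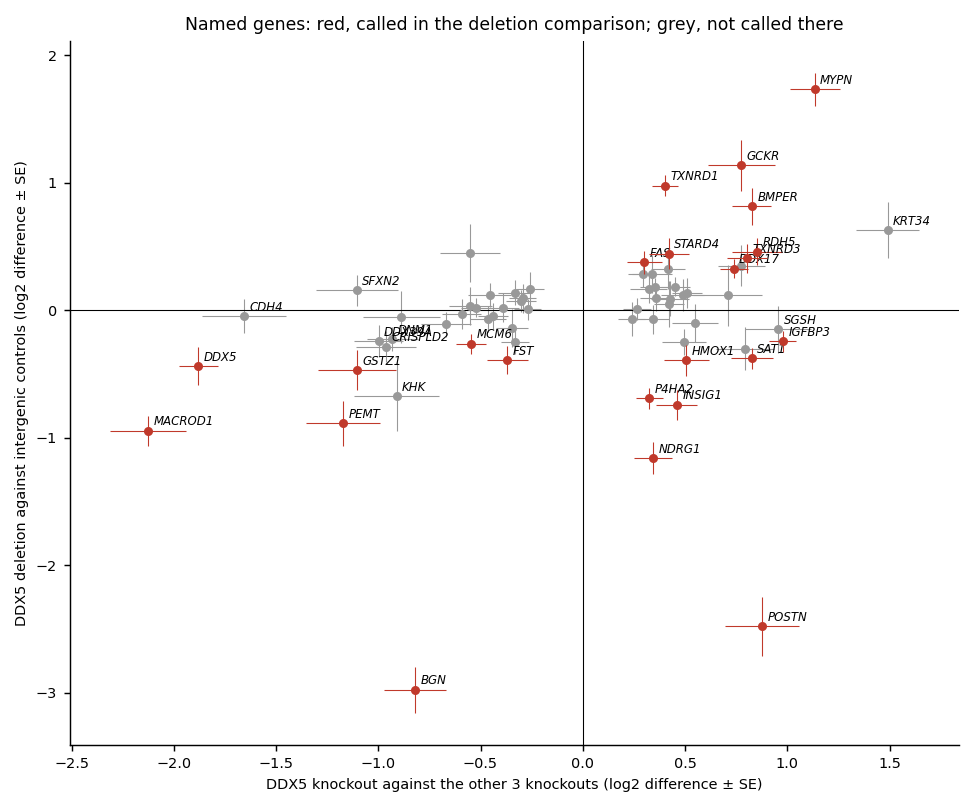
Each point is a named gene, with the log2 difference of the DDX5 knockout from the other 3 knockouts on the horizontal axis and that of the DDX5 deletion from the intergenic controls on the vertical axis, and lines of 1 SE; red points were called in the deletion. MACROD1, PEMT, GSTZ1 and DDX5 lie low on both axes, MYPN, GCKR and BMPER high on both, and POSTN, NDRG1, INSIG1 and P4HA2 are high in the knockout and low in the deletion.

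Splicing was read as the percent inclusion of an exon, intron or splice site. Over every event with at least 20 reads in each of the 8 libraries, 0 of 258760 events were called in limma at an adjusted p under 0.05 with a difference of at least 10 percentage points (14986 had an unadjusted p under 0.05). A test chosen after seeing this result kept the events with a mean inclusion of 5% to 95% and weighted each library by its reads. The mean was taken over all 8 libraries, so an event could enter through the DDX5 knockout libraries alone. The weighted test called 48 of 13302 events (0.361%), 18 with higher (0.135%) and 30 with lower inclusion (0.226%), in 46 genes (1370 had an unadjusted p under 0.05). Called events whose mean in the other knockouts was outside 5% to 95% were in SLC35B1 (97.1%), ADSL (96.5%), ZNF283, CIC and DDX5. Cassette exons gave 14 higher and 23 lower of 5566, microexons 0 and 2 of 22, retained introns 2 and 2 of 3372, alternative 5′ sites 2 and 3 of 1937, and alternative 3′ sites 0 of 2405. CIC and FAM120A each gave 2 of these 5′ sites, 1 higher and 1 lower. Within each gene the 2 sites mirror each other (52.9 and -52.9 points, 50.6 and -50.6 points), so each pair is a single change. In 44 of the 48 events the DDX5 knockout lay outside the range of the other knockouts. The 48 were called for this same difference, and the share over all 13302 events was not determined. The count of 44 is therefore no support for the calls. Of the 46 genes 8 also had a called level (5.92% of all genes tested did). All adjusted p-values that follow are from the weighted test. That test called 18 events without DDX5 knockout replicate 1, 29 without replicate 2 labelled HDAC7 knockout, 31 without DDX17 knockout replicate 2 and 32 without the replicate block. Exons named below for their length, p-value or deletion result, rather than for a large difference, were chosen after their values were seen.

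Exons that show the pattern are printed with the exon in capitals and 15 transcript bases on either side in lower case, as read from GENCODE v29 transcripts (GRCh38). They are the short exons of MACF1, DST and AXL, the larger exons of ARHGEF12, GOLGA2, OS9 and LTA4H, which were called in the deletion as well, and the TPM1 exon with the smallest p-value.
MACF1, chr1:39465095-39465112, plus strand: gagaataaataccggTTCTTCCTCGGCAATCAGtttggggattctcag
DST, chr6:56468982-56468999, minus strand: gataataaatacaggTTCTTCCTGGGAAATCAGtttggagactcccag
AXL, chr19:41239694-41239720, plus strand: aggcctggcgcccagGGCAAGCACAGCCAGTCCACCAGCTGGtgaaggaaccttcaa
ARHGEF12, chr11:120429712-120429831, plus strand: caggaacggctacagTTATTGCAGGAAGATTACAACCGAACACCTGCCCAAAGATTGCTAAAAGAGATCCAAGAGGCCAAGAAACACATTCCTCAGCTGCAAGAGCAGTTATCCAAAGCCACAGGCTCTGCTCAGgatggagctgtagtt
GOLGA2, chr9:128272785-128272865, minus strand: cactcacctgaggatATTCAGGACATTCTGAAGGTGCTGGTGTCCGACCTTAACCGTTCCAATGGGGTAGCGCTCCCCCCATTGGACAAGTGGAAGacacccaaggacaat
OS9, chr12:57720099-57720263, plus strand: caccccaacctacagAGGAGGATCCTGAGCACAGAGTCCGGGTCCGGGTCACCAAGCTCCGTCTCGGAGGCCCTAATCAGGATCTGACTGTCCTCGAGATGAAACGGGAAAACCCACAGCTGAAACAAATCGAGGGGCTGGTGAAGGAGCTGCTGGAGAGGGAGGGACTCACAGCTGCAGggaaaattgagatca
LTA4H, chr12:96003838-96003920, minus strand: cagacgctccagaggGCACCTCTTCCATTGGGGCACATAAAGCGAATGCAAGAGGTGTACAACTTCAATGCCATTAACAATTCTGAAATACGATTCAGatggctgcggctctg
TPM1, chr15:63043706-63043831, plus strand: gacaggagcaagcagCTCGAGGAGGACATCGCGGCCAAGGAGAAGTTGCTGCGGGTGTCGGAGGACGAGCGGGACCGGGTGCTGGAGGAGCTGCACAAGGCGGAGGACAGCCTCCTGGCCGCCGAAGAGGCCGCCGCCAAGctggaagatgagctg

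The 18-base exons of MACF1 and DST, genes of the paralogous spectraplakins that link actin to microtubules, were both skipped more often in the DDX5 knockout. MACF1 inclusion was 20.5% and 22.1% in the DDX5 knockout and 34.2%, 45.6% and 50.4% in the other knockouts, a difference of -22.8 points, limma adjusted p = 5.4e-05. DST inclusion was 72.8% and 74.1% against 87.1%, 90.9% and 95.3%, a difference of -17.9 points, limma adjusted p = 0.0084. In both genes the DDX5 knockout lay below all other knockout libraries and all 4 controls, which stood at 28.8% to 41.5% for MACF1 and 85.4% to 90.9% for DST. Aligned without gaps, the 2 exons were identical at 16 of 18 bases and their flanks at 25 of 30. In the deletion the DST exon fell by 12.0 points (73.1% to 81% against 85.4% to 90.9%, limma adjusted p = 0.011), whereas MACF1 differed by -0.55 points, limma adjusted p = 0.78.

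The 27-base exon of AXL, a receptor tyrosine kinase, was included at 45.7% and 46% against 55%, 58.6% and 59.5%, a difference of -12.3 points, limma adjusted p = 3.3e-05, from at least 2416 reads in each library. The 6-base microexon of PSAP, the saposin precursor, at chr10:71823888-71823893, was included at 39.7% and 41.2% against 49%, 54.8% and 60.4% (-14.2 points, limma adjusted p = 2.6e-06). The 3-base microexon of NSFL1C, a cofactor of the p97 ATPase, was included at 27.1% and 26.6% against 34.3%, 41.8% and 43.3% (-13.7 points, limma adjusted p = 0.0025). All 3 were below every other knockout library, and for AXL and PSAP the deletion differed from its controls in the same direction, by -8.5 points, limma adjusted p = 0.001, and -3.05 points, limma adjusted p = 0.0048. The 30-base exon of PPP3CB, a calcineurin catalytic subunit, differed by -11.2 points, limma adjusted p = 0.018, with replicate 2 inside the range of the others. Of the 39 called exons, microexons included, 34 were identical to an exon of GENCODE v29, and 27 had a length that is a multiple of 3, so that skipping keeps the reading frame where the exon is coding. The share of such lengths among all exons tested was not determined, so the 27 are not shown to be unusual.

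Longer exons with lower inclusion were called in the deletion as well. The 120-base exon of ARHGEF12, a guanine nucleotide exchange factor, was included at 49.8% and 56.1% against 64.9%, 73% and 78.2%, a difference of -18.8 points, limma adjusted p = 0.00069. The deletion stood at 54.9% to 61.4% against 73.3% to 84.1% in the controls (-21 points, limma adjusted p = 0.00019). The 81-base exon of GOLGA2, the Golgi matrix protein GM130, was included at 49.97% and 48.6% against 61.4%, 67.4% and 70.1% (-17.2 points, limma adjusted p = 0.011). For GOLGA2 the deletion held 48.8% to 58.6% against 67.7% to 76.3% (-18.2 points, limma adjusted p = 0.00092). Neither the knockout nor the deletion libraries overlapped their reference in these 2 exons. OS9, a lectin of endoplasmic reticulum quality control, had its 165-base exon included at 40.2% and 42.2% against 47.6%, 50.1% and 56.7% (-10.1 points, limma adjusted p = 0.0084; deletion -12.1 points, limma adjusted p = 0.00028). LTA4H, leukotriene A4 hydrolase, differed by -14.9 points, limma adjusted p = 0.025 (deletion -10.9 points, limma adjusted p = 0.0042). POMGNT1, a glycosyltransferase of dystroglycan, differed by -11.3 points, limma adjusted p = 0.0081 (deletion -13.7 points, limma adjusted p = 0.0042), and SP140L by -12.6 points, limma adjusted p = 0.019 (deletion -10.8 points, limma adjusted p = 0.0034). In the other direction KLC1, a kinesin light chain, was included more by 11.1 points, limma adjusted p = 0.0081 (deletion 10.8 points, limma adjusted p = 0.00093), although replicate 2 lay inside the range of the other knockouts.

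Of the 45 called events that could be tested in the deletion 36 differed in the same direction there, 14 of them at a limma adjusted p under 0.05, and 8 were called with at least 10 points: ARHGEF12, GOLGA2, OS9, LTA4H, POMGNT1, SP140L, DST and KLC1. These 8 are 17.8% of the 45, and 2.18% of the 367 deletion calls tested in both, where 447 of 18998 events were called (2.35%). All 14 events at an adjusted p under 0.05 in the deletion had the direction of the knockout.

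TPM1, an actin-binding tropomyosin, had the smallest p-value of all events, with the 126-base exon at chr15:63043706-63043831 included at 24.8% and 23% against 6.02%, 10.8% and 14.4% (13.3 points, limma adjusted p = 7.3e-07). It was read from at least 4004 reads in each library. The DDX5 knockout lay above all other knockouts and controls (9.23% to 10.5%), and the deletion stood at 15.4% to 18% (6.78 points, limma adjusted p = 5.2e-06). MTA1, a subunit of the NuRD chromatin complex, had a 51-base exon included at 81.8% and 77.1% against 35%, 45.2% and 70.05% (29.5 points, limma adjusted p = 0.0025). The controls held 67% to 72.2%, nearer to the DDX5 knockout, while the DDX17 and FNBP4 knockouts were low. ASAP2, an ARF GTPase activator (30.4 points, limma adjusted p = 0.0065), and MCTP1, a membrane protein with C2 domains (23.9 points, limma adjusted p = 0.044), had the other large gains, and MKNK1, a kinase of the translation factor eIF4E (-24.3 points, limma adjusted p = 0.0084), a large loss. ZNF283 (-39.98 points, limma adjusted p = 0.04) rested on as few as 23 reads, and replicates of the DDX5 knockout stood far apart (32.1% and 87.1%). The other knockouts averaged 99.6% for ZNF283, so it entered the weighted test only through the DDX5 knockout libraries. NPIPB13 (-24.9 points, limma adjusted p = 0.013) belongs to a family of near-identical copies.

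**Figure D5:**
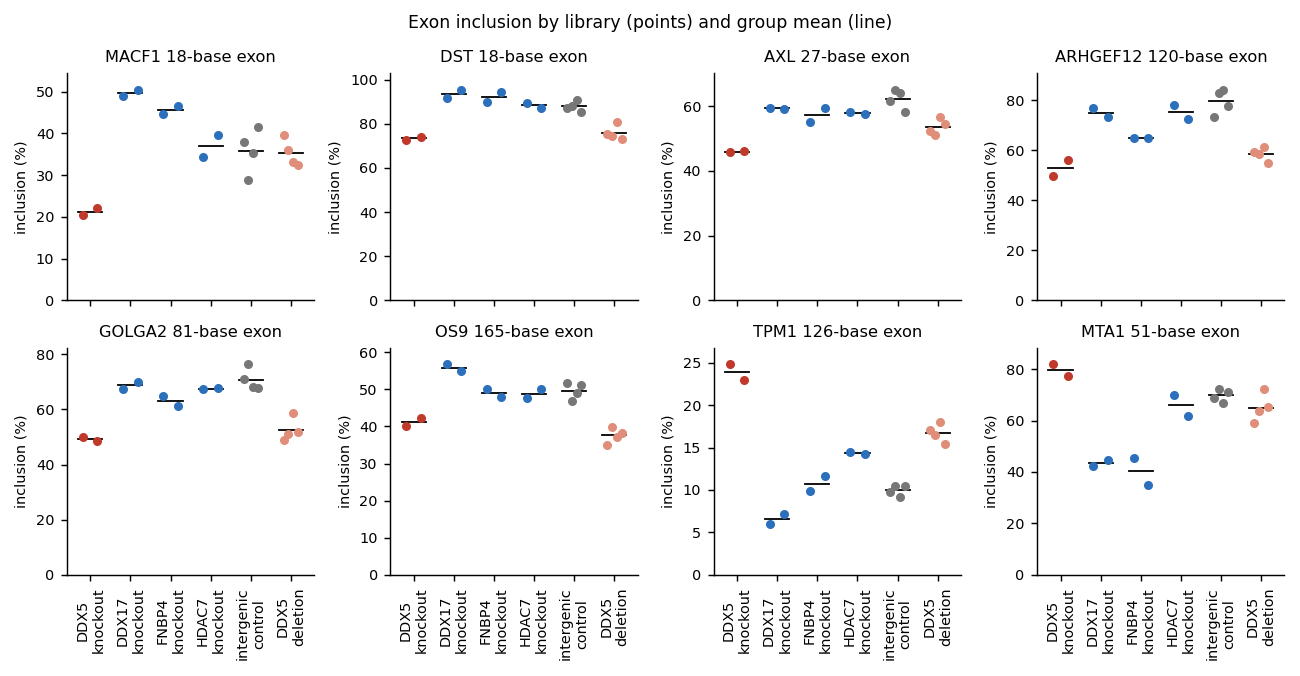
Percent inclusion (vertical axis, from 0) of 8 exons in each library, with a point per library and a line at the group mean. MACF1, DST, AXL, ARHGEF12, GOLGA2 and OS9 are below all other knockout libraries in both DDX5 knockout libraries, TPM1 and MTA1 above them, and for ARHGEF12, GOLGA2, OS9 and DST the deletion lies below the controls.

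The called intron with the largest rise was in DDX5 itself. The first of its 12 introns in the table, 1233 bases at chr17:64504843-64506075, was retained at 13.6% and 27.5% in the DDX5 knockout against 0%, 0.44% and 1.39% in the other knockouts and 0.65% to 1.35% in the controls. The difference was 20.1 points, limma adjusted p = 0.0015 (unweighted, adjusted p = 0.19), from at least 46 reads. The other knockouts averaged 0.47%, so this intron passed the 5% limit of the weighted test only through the DDX5 knockout libraries. Its weighted p-value is thus not independent of that filter. The DDX5 deletion also stood above the controls, at 6.38% to 10.2%; its mean inclusion was below the range tested there. The other 11 DDX5 introns stood at 0% to 12.2% in the DDX5 knockout, and of these only the intron that holds the deletion sites entered the weighted test. The intron that holds the deletion sites, at chr17:64500774-64502009, gave 3.42% and 12.2% in the DDX5 knockout, inside the 0.97% to 15.3% of the other knockouts, and 17% to 27.8% in the deletion against 12.7% to 15.7% in the controls. A share of retention rises when spliced DDX5 RNA falls and intronic RNA does not, and the 2 were not separated here.

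Of the other introns, ELF2, an ETS transcription factor, had higher retention at chr4:139072004-139073453 (52% and 37.2% against 14.1%, 26.3% and 34.7%, 19.9 points, limma adjusted p = 0.044). PRKCSH, the beta subunit of glucosidase II, had lower retention at chr19:11449429-11450645 (17.5% and 21.2% against 32.8%, 36.7% and 42.1%, -17.6 points, limma adjusted p = 0.0027). PABPC4, a poly(A)-binding protein, had lower retention at chr1:39563923-39564470 (24.4% and 22.7% against 31.3%, 35.5% and 38.6%, -11.4 points, limma adjusted p = 0.014). The 3 introns lay outside the range of the other knockouts in both DDX5 knockout libraries, and none was at an adjusted p under 0.05 in the deletion. Among alternative 5′ sites, 1 CIC site, for an exon at chr19:42294173-42294298, was used at 44.9% and 60.9% in the DDX5 knockout and at 0% in all 6 other knockout libraries, from 26 to 68 reads, but at 35.9% to 45.1% in the controls. FAM120A had 1 such site at 0% and 0% against 25%, 51.6% and 71.7%, from 56 to 108 reads, and the controls ranged over 0% to 63%. For CIC and FAM120A the DDX5 knockout was thus not set apart from the controls. The CIC site, at 0% in the other knockouts, entered the weighted test only through the DDX5 knockout libraries.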

How the data were processed

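Total RNA-seq of 34 libraries was used, with groups and replicate numbers from the labels; 4 value columns of 2 libraries with no sample here were not used. The deposited splicing table gives the percent inclusion of 721536 events per library, as the authors made it, and beside each value the read counts behind it, per the file headers. A deposited expression table gives RPKM per hybrid guide, with log2 fold changes and FDR values (adjusted p-values) against the controls by the authors; it was used only where named. Salmon 1.10 and edgeR are named in the submitters' processing notes; neither the aligner nor the genome build is given in the sources used here. Exon coordinates were matched to GENCODE v29 (GRCh38). A second deposited splicing table, with replicates combined, was not used.

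Spliced-junction reads of 192950 introns were summed for 29324 genes in this work (all values whole), scaled by trimmed mean of M values and tested with limma 3.58.1 (voom) in R 4.3.3 on the 8 knockout libraries. Genes needed counts equal to 10 at the median depth in 2 libraries and 15 reads in all. The design gave each knockout a coefficient and the replicate number a block, and the contrast was the DDX5 knockout minus the mean of the other 3. Counts were parsed from text in the table, so voom stood in for a count model. The replicate numbers were taken to pair the knockout libraries because deviations from the group means correlated at 0.455 to 0.622 in all 6 pairs of knockouts; the labels say only that replicates are biological duplicates. The deletion was compared with the controls in a fit to all 34 libraries without a block. Inclusion was tested with limma on log2((inclusion + 1)/(exclusion + 1)) where all 8 libraries had 20 reads or more; the weighted test, with a mean inclusion of 5% to 95%, was chosen after seeing the data.

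Genes were named by rule: the 4 targets, up to 12 higher and 12 lower genes with the largest log2 difference among called genes whose mean log2 CPM reached 2 and whose DDX5 knockout libraries both lay beyond the range of the others, and up to 4 called members with the smallest p of each list with at least 2 calls; events: called events of the targets, and up to 6 introns, 6 exons and 4 alternative sites with the largest difference among called events whose DDX5 knockout libraries both lay beyond the range of the others. Of the named genes 1 is not reported here. The comparison, its members and the 28 gene lists were chosen with earlier results of these data known. Alternatives were other scalings, filters, designs, references and pseudocounts, and leaving out each library. Standard errors are limma's and reflect the spread between libraries; the read numbers given for events bear on counting error only, and the labels name no molecular identifiers.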

Additional observations from a re-analysis of the deposited data

How the results depend on the processing

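The 377 higher and 301 lower genes became 214 and 463 when scaled to total reads only, 239 and 176 without the filter on low counts (more genes tested), 36 and 20 in the fit to all 34 libraries without a block, 6 and 3 with a single coefficient for the other 6 libraries, 88 and 62 without the DDX17 knockout in the reference, 976 and 661 without the libraries labelled HDAC7 knockout, and 711 and 496 with the intergenic controls as reference. With no replicate block they were 0 and 1, and with the replicate block and a GC and length trend removed 729 were higher. Leaving out 1 library at a time gave 27 to 829 higher and 14 to 651 lower. The causes were not tested. Every call tested kept its sign in these fits, except that 672 of 676 did without the DDX17 knockout, 673 of 675 without the FNBP4 knockout and 615 of 678 against the controls. The fits share libraries with the reported one, so kept signs are not separate support.

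The 42 replication and mitosis calls became 0 with no replicate block, 3 in the fit to all 34 libraries, 0 with the single coefficient, 7 without the DDX17 knockout and 12 against the controls, and 1 to 47 without single libraries. The 9 sterol calls became 0, 1, 0, 3 and 1 in the same order, 16 without the libraries labelled HDAC7 knockout, and 1 to 12 without single libraries. The 17 named genes shared with the deletion became 11 with deletion hybrid guide 1 alone, and 11 to 16 without single libraries.

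The 0 events of the first splicing test became 6 with the single coefficient and 2 without the DDX17 knockout, and 0 to 3 without single libraries. The 48 weighted events became 16 with the single coefficient, 92 with no limit on size, 14 at 20 points, 0 with no limit on mean inclusion, 32 with no replicate block, and 18 to 51 without single libraries.

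Log2 differences that changed sign were those of FNBP4, which was near 0 (0.026 with no replicate block, 0.038 with limma-trend, 0.031 over 34 libraries, 0.004 with the single coefficient, 0.002 with the GC and length trend removed, 0.045 without the DDX17 knockout, and -0.265 to 0.322 without single libraries), HDAC7 (-0.016 with total reads only, -0.118 against controls, and -0.14 at the lowest without single libraries), and DKK1 (-0.024 without the DDX17 knockout). Against the controls they were -0.326 for SAT1, -0.023 for DPP4, 0.439 for ACTA2, -1.019 for POSTN, 0.291 for FST, 0.164 for PHGDH, 0.075 for ASNS, 0.21 for PSAT1, -0.303 for MSMO1 and -0.788 for INSIG1. Genes with few junction reads and events near the minimum of 20 reads are limited by depth.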
